A study of Mus musculus with 4 samples.

Results

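Splicing factors and heterogeneous nuclear ribonucleoproteins (hnRNPs) were compared between 2 mouse cell populations measured on single-colour oligonucleotide arrays. The members are the probe sets with a single gene symbol in the Srsf, Sf3a, Sf3b, Snrp, Hnrnp, U2af and Prpf families, leaving out Snrpn. They number 71 of 12422 tested probe sets and stand for 52 of 8251 genes. The rule reads gene symbols only. One of them, Snrp1c-ps2, is a pseudogene in the RefSeq table, and 7 probe sets that match the families but carry several symbols were left out.

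The arrays fall by title into 2 Hemangioblast and 2 hCD4 arrays, the only groups of the study. All derive from mouse embryonic stem (ES) cells of the Scl+/hCD4 line, in which human CD4 reports Scl, the product of Tal1. Per the labels, these cells were grown on STO feeder cells with LIF and differentiated for 2.75 days in fetal calf serum. Flk-1+Scl+ cells of the embryoid bodies were sorted as hemangioblasts, the shared precursors of blood and endothelium. Cells of day 2.75 embryoid bodies were also replated, and the single blast colonies that formed were collected and pooled. The sample sources name hemangioblasts and hCD4 ES cells, whereas the study text names hCD4 and Blast, so which of these cells an array holds is not settled by the labels. Titles alone are used to name the groups. No label states separate cultures for the 2 arrays of a group, so a p-value here reflects only how far these particular arrays scatter, possibly for technical reasons.

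The markers of the labelled cells were checked first. Of 8 hemangioblast markers, 3 (Kdr, Etv2 and Gata2) were lower on the Hemangioblast arrays and 0 higher, and the summed scaled intensity of the 8 was 3809 and 4006 on the Hemangioblast arrays, against 6541 and 7877 on the hCD4 arrays. Etv2 was at 19.0 and 36.4 on the Hemangioblast arrays, near the constant of 16 that was added before taking logs. Of 10 myeloid markers, 9 were higher on the Hemangioblast arrays and 0 lower, with sums of 6586 and 7196 against 476 and 503. Of 8 erythroid markers 6 were higher and 0 lower, with sums of 28073 and 28624 against 7973 and 8437. Of 10 pluripotency markers 2 were lower and 0 higher, with sums of 4696 and 4826 against 8083 and 6016. Esrrb made up a large part of each of these sums, at 3343 and 3476 against 3165 and 3579. The hCD4 arrays were unlike in some of these markers, as in Pou5f1, at 104 and 144 against 1526 and 585. Of 9 fibroblast markers 1 was higher and 0 lower, with sums of 3091 and 3646 against 3020 and 3075, and of 9 cell cycle genes 0 passed in either direction. The cell cycle genes had a median log2 change of -0.26 and sums of 12761 and 12244 on the Hemangioblast arrays, against 14394 and 13717 on the hCD4 arrays. In each of these lists 0 markers had means under 16 in both groups, and their part in the results below was not tested. In such bulk RNA, fewer cells of a type and less RNA per cell cannot be told apart.

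Introns are removed from nuclear transcripts by the spliceosome, which is assembled anew on each intron from small nuclear ribonucleoproteins (snRNPs) and many further proteins. U2AF binds the end of the intron, the U2 snRNP with its SF3A and SF3B complexes engages the branch point, and the PRPF proteins belong largely to the U4/U6.U5 tri-snRNP and the complexes that drive catalysis. SR proteins and hnRNPs bind exons and introns and promote or repress the use of nearby splice sites, and many hnRNPs also act in RNA export, stability and translation. These proteins are made in nearly all cells, and several are essential for viability.

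Across the 71 probe sets the differences were small and leaned one way. One probe set, for U2af1, passed an adjusted p of 0.05 in limma and was lower on the Hemangioblast arrays, and 0 were higher. Of all tested probe sets 1.56% were called lower and 2.91% higher, 4.48% in either direction, so 1 of 71 (1.41%) is close to the background for lower calls. These calls over all probe sets were 362 higher and 194 lower, against 222 and 50 without scaling of the arrays, which puts 65.1% and 81.6% of the calls on the higher side. Of the members, 0 were 2-fold or more apart, one way, in each of the 4 pairings of a Hemangioblast with an hCD4 array, which 2.89% of all probe sets were. At an unadjusted p under 0.05, 13 members were lower and 0 higher, while 7.43% of all probe sets were lower at that level.

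The lean shows in the sign. The log2 change, given throughout as Hemangioblast minus hCD4, was below 0 for 60 of the 71 members, against 45.6% of all tested probe sets. The median over the members was -0.21, whereas the median over all tested probe sets was 0.039. Without scaling the 2 medians were -0.18 and 0.059, and with median scaling -0.29 and -0.033. Both Hemangioblast arrays lay below both hCD4 arrays for 35 members (19.7% of all probe sets did so), and both lay above for 2 members (24.8% of all). With 1 probe set per gene, the brightest, 45 of 52 genes had a change below 0, against 47.5% of all 8251 genes. The changes ran from -0.81 to 0.80. For 62 of the 71 probe sets the unadjusted 95% interval lay within a 2-fold difference in either direction. That was so for 7426 of all 12422 tested probe sets. Regardless of sign, the median change was 0.25 for the members and 0.25 for all tested probe sets. The median standard error of a change was 0.19 for the members and 0.27 for all tested probe sets. The intervals and the changes regardless of sign are thus not compared at equal precision.

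**Figure D1:**
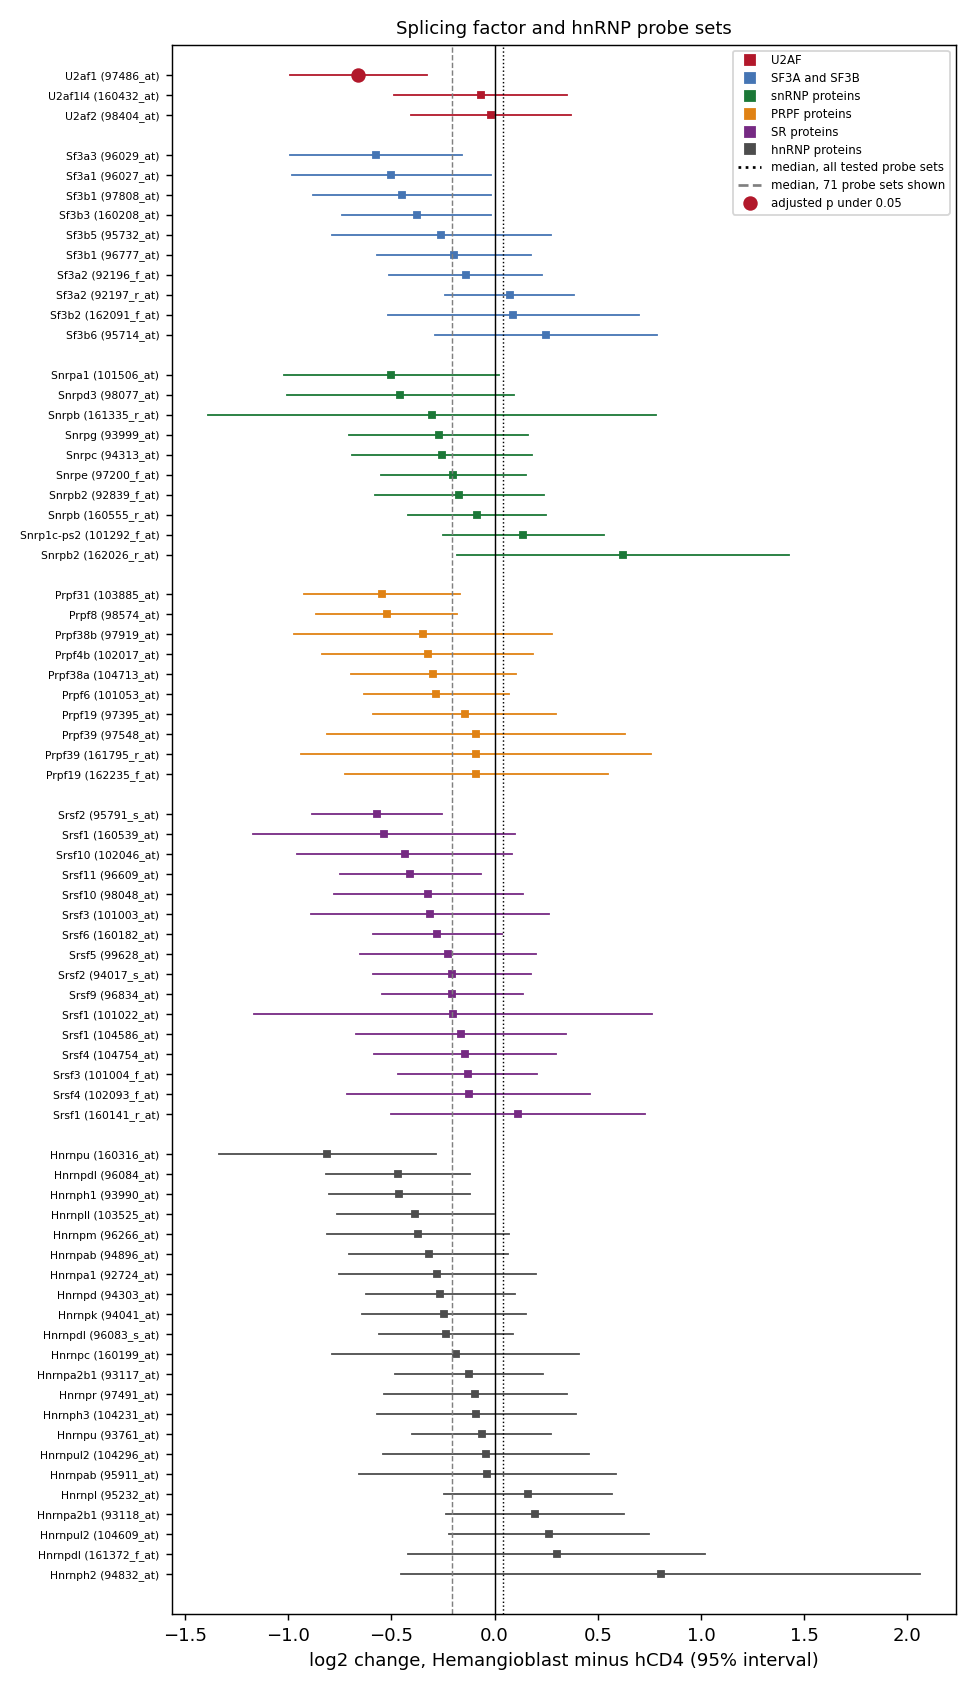
Log2 change (Hemangioblast minus hCD4, x axis) of each of the 71 probe sets, grouped by family, with its 95% interval as a line. The large round point is U2af1 at -0.66, the single member past an adjusted p of 0.05. The dashed line is the median of the 71 (-0.21) and the dotted line that of all tested probe sets (0.039).

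The members are bright probe sets, with a median scaled intensity of 794 against 194 for all tested probe sets, and bright probe sets as a whole leaned the same way to a smaller degree. Among all 3034 probe sets with a mean intensity of at least 500, a limit chosen after seeing the data, 58.5% had a change below 0 and the median was -0.067. Among the 44 members above that limit, 39 had a change below 0 and the median was -0.26. At an unadjusted p under 0.05, 12 of these 44 were lower, against 17.9% of the 3034. Both Hemangioblast arrays lay below both hCD4 arrays for 25 of the 44, against 35.1% of the 3034. The 1 call among the 44 (2.27%) is below the 3.99% called lower among the 3034.

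**Figure D2:**
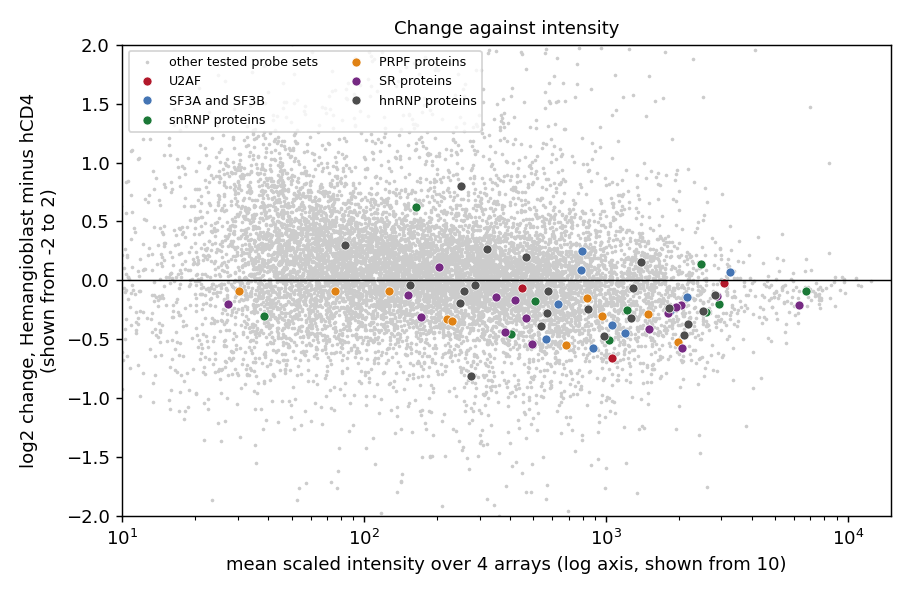
Log2 change (Hemangioblast minus hCD4, y axis, shown from -2 to 2) against the mean scaled intensity over 4 arrays (log x axis) for the members, coloured by family, and for all other tested probe sets in grey. Of the 44 members at an intensity of at least 500, 39 lie below 0.

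The lean can be set beside the spread within a group on the single arrays. Taken as a deviation from each probe set's mean over the 4 arrays, the member median was -0.067 and -0.16 on the Hemangioblast arrays, against 0.12 and 0.10 on the hCD4 arrays. The 4 cross-group pairs gave member medians of -0.14, -0.068, -0.27 and -0.22. The arrays of 1 group differed by a signed member median of 0.073 for Hemangioblast (replicate 1 minus 2) and 0.0055 for hCD4, in which opposite signs cancel. The smallest of the 4 shifts was thus no larger than this difference between the Hemangioblast arrays. Regardless of sign, the member median of the difference between replicates was 0.24 for Hemangioblast and 0.14 for hCD4. The member median of the change between groups, also regardless of sign, was 0.25. That change is between means of 2 arrays, which scatter less than the single arrays of a replicate difference. These values are therefore not on equal terms. The actin control probes, which report RNA quality, had a 3' to 5' ratio of 1.63 and 1.16 for Hemangioblast. For hCD4 it was 1.36 and 1.12. The ratio of the Gapdh control probes was 1.33 and 1.03 for Hemangioblast, against 1.13 and 1.03 for hCD4. The part of RNA quality in the lean was not tested.

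**Figure D3:**
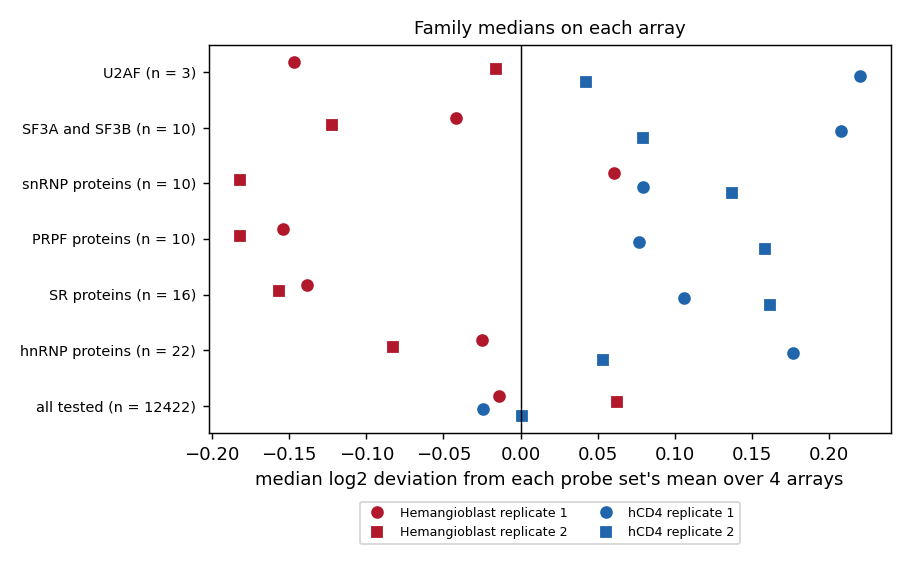
Median log2 deviation from each probe set's mean over the 4 arrays (x axis) for each family and for all tested probe sets, 1 point per array (red Hemangioblast, blue hCD4, circles replicate 1, squares replicate 2). In every family the Hemangioblast points lie left of the hCD4 points, by little for the snRNP proteins, where Hemangioblast replicate 1 is at 0.060 and hCD4 replicate 1 at 0.080.

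U2AF is a dimer that marks the 3' splice site. Its small subunit, U2af1, reads the AG dinucleotide at the intron end. U2af1 had scaled intensities of 807 and 823 on the Hemangioblast arrays, against 1297 and 1300 on the hCD4 arrays. The arrays of each group lay close together, and the groups were far apart. The log2 change was -0.66 (SE 0.14, 95% interval -0.99 to -0.33, adjusted p = 0.0421), which is 1.58-fold lower on the Hemangioblast arrays. Its rank by p among all probe sets was 508, and its adjusted p was just inside the threshold. The call was lost under median scaling (adjusted p = 0.0655), quantile normalization (0.0603), no scaling (0.176) and a fit without an intensity trend (0.222). It was also lost with any 1 array left out (0.0715 without Hemangioblast replicate 1, 0.079 without Hemangioblast replicate 2, 0.21 without hCD4 replicate 1 and 0.26 without hCD4 replicate 2), while over all these alternatives the log2 change lay between -0.75 and -0.62. Each fit with 1 array left out sets 1 array against 2, takes its residual spread from the complete group and assumes that the lone array varies alike. With 1 array left out the change of U2af1 itself was -0.68 to -0.65.

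The large subunit gene U2af2, which encodes the reader of the polypyrimidine tract, was at 3043 and 3016 on the Hemangioblast arrays, against 3553 and 2651 on the hCD4 arrays. The Hemangioblast values lay between the hCD4 values, and the log2 change was -0.019 (SE 0.17, 95% interval -0.41 to 0.37, adjusted p = 0.984). U2af1l4, a paralog of the small subunit, was at 401 and 472 against 454 and 460 (log2 change -0.067, SE 0.18, adjusted p = 0.928), and its groups overlapped too. No test of the difference between the 2 subunits was made.

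The promoter of the single called gene is shown with those of 2 further members described below, Srsf2, the member with the next smallest p, and Sf3a3, which carries an Ets motif. Sequences are from RefSeq (GRCm38.p6), cover 250 bases before to 50 after the start of the gene, and run 5' to 3' on the gene's own strand. Capitals mark every match, on either strand, to one of 5 motifs. The letters searched were CACGTG for the E-box and CCGGAAG for the Ets motif. Those for the CCAAT box were ATTGG, those for the GC box were GGGCGG, and those for the TATA motif were TATAAA. The U2af1 window, 1 of 2 listed starts, lies at chr17:31658715-31659014 on the minus strand, that of Srsf2 at chr11:116853045-116853344 on the minus strand, and that of Sf3a3 at chr4:124714611-124714910 on the plus strand.
U2af1: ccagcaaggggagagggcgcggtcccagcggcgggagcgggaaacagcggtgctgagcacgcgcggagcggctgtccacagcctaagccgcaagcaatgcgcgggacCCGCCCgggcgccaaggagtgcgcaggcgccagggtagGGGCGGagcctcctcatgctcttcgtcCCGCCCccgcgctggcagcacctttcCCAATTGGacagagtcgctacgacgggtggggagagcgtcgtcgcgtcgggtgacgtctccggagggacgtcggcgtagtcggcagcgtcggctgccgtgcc
Srsf2: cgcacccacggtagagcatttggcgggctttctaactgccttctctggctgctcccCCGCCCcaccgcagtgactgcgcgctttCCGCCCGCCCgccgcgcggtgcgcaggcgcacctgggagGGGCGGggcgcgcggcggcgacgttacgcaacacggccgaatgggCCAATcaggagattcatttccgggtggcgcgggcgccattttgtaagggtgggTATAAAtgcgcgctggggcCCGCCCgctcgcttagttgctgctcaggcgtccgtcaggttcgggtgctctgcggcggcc
Sf3a3: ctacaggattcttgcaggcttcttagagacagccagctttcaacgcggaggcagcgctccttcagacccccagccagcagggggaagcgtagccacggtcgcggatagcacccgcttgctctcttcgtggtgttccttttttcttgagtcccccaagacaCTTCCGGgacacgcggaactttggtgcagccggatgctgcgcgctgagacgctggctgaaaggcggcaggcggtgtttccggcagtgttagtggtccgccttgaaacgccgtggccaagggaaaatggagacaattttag

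The U2af1 window holds 3 GC box matches and 2 overlapping CCAAT box matches, 1 on each strand. It has no E-box, Ets or TATA match. The Srsf2 window holds 5 GC box matches, of which 2 overlap, 1 CCAAT box and a TATA match that begins 29 bases before the start. The Sf3a3 window holds a single match, the Ets letters on the opposite strand, 90 bases before the start. A match describes the letters only.

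Over all members, 46 of 52 genes had a promoter entry, with 58 windows in all. GC box letters were in 69% of the member windows, and in 64.4% for members with an intensity of at least 500. They were in 66.3% of the windows of genes on the array with an intensity of at least 500 and 35.7% of all windows. Ets letters were in 20 of the 58 member windows (34.5%), against 20.1% and 8.86%. They were unevenly spread, with 7 of 8 windows in the SF3A and SF3B genes (Sf3a1, Sf3a2, Sf3a3, Sf3b2, Sf3b3 and Sf3b6), 4 of 6 in the snRNP genes (Snrpb2, Snrpc, Snrpe and Snrpg), 5 of 12 in the SR genes, 3 of 9 in the PRPF genes, 1 of 20 in the hnRNP genes (Hnrnpd) and 0 of 3 in the U2AF genes. CCAAT box letters were in 50% of the member windows, against 38.2% in windows of bright genes and 37.4% of all. E-box letters were in 6.9%, against 12.2% and 7.15%, and TATA letters in 8.62%, against 7.21% and 13.6%. For members with an intensity of at least 500, these shares were 37.8% (Ets), 51.1% (CCAAT box), 4.44% (E-box) and 11.1% (TATA). For all genes on the array they were 14.4%, 37%, 9.55% and 9.99%, and 57% for the GC box. The genes with no entry in the table were Hnrnpll, Hnrnpul2, Sf3b5, Snrp1c-ps2, Snrpb and U2af2. Windows of 1 gene can overlap, so these counts are of windows and not of independent genes.

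SF3A and SF3B make up the part of the U2 snRNP that holds the branch point. Of their 10 probe sets (8 genes), 0 were called, 7 had a change below 0, and the family median was -0.23. At an unadjusted p under 0.05, 4 were lower and 0 higher. Sf3a3, an SF3A subunit, was at 818 and 606 on the Hemangioblast arrays, against 1060 and 1056 on the hCD4 arrays (log2 change -0.58, SE 0.18, adjusted p = 0.141). The hCD4 arrays were nearly equal, the Hemangioblast arrays were not, and the groups did not overlap. Without Hemangioblast replicate 1 its change was -0.79 (adjusted p = 0.0438), and without Hemangioblast replicate 2 it was -0.37 (adjusted p = 0.384). Without hCD4 replicate 1 or 2 its adjusted p was 0.354 and 0.481. Sf3a1, the large SF3A subunit, was at 382 and 559 against 651 and 672 (log2 change -0.50, SE 0.21, adjusted p = 0.284). Sf3b3 was at 971 and 868 against 1285 and 1116 (log2 change -0.38, SE 0.16, adjusted p = 0.281). With 1 array left out, the change of Sf3a1 ran from -0.77 (without Hemangioblast replicate 2) to -0.24 (without Hemangioblast replicate 1).

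Sf3b1, the scaffold of SF3B that clamps the branch point helix, has 2 probe sets, and on both of them the Hemangioblast arrays were the lower ones. One gave 843 and 1191 against 1412 and 1333 (log2 change -0.45, SE 0.19, adjusted p = 0.285), and the other 565 and 614 against 691 and 664 (-0.20, SE 0.16, adjusted p = 0.657). The first of these changes was -0.69 without Hemangioblast replicate 2 and -0.20 without Hemangioblast replicate 1. Sf3a2, an SF3A subunit, was at 3242 and 3445 against 3272 and 3080 on one probe set (log2 change 0.074, SE 0.14) and 2251 and 1862 against 2450 and 2078 on the other (-0.14, SE 0.16), with overlapping groups on both. Sf3b2, Sf3b5 and Sf3b6 had changes of 0.090, -0.26 and 0.25, none of which passed. All 10 intervals of the family lay within 2-fold in either direction. So did 2553 of the 3034 tested probe sets with a mean intensity of at least 500.

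The snRNP proteins are the Sm ring proteins Snrpb, Snrpd3, Snrpe and Snrpg, shared by most spliceosomal snRNPs, and the U1 protein Snrpc and the U2 proteins Snrpa1 and Snrpb2. Of 10 probe sets (8 genes), 0 were called in either direction and 0 had an unadjusted p under 0.05, while 8 had a change below 0 and the median was -0.23. Without Hemangioblast replicate 2 the family median was -0.025. Snrpb was at 7053 and 6024 against 6850 and 6988 (log2 change -0.086, SE 0.15, adjusted p = 0.863), while its other, dim probe set had a change of -0.30 (SE 0.47). Snrpe was at 3021 and 2450 against 3096 and 3162 (log2 change -0.20, SE 0.15, adjusted p = 0.621), and Snrpg at 2814 and 1931 against 2770 and 2860 (-0.27, SE 0.19, adjusted p = 0.577). Snrpc was at 1319 and 927 against 1273 and 1370 (-0.25, SE 0.19, adjusted p = 0.615). In Snrpb, Snrpg and Snrpc, Hemangioblast replicate 1 was at the level of the hCD4 arrays and replicate 2 was the low one. The change of Snrpg was -0.54 without Hemangioblast replicate 1 and -0.00060 without Hemangioblast replicate 2.

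Snrpa1 was at 1064 and 659 on the Hemangioblast arrays, against 1113 and 1277 on the hCD4 arrays (log2 change -0.50, SE 0.23, adjusted p = 0.33). Without Hemangioblast replicate 1 its change was -0.84 and it passed (adjusted p = 0.0379), and without Hemangioblast replicate 2 the change was -0.16 (adjusted p = 0.79), each from 1 array against 2. In Snrpd3 Hemangioblast replicate 1 was the low one, at 266 and 424 against 460 and 474 (log2 change -0.46, SE 0.24, adjusted p = 0.419), with a change of -0.13 without that array and -0.78 without Hemangioblast replicate 2. The probe sets of Snrpb2 differed in sign: one was at 147 and 258 against 155 and 94.3 (log2 change 0.62, SE 0.35, adjusted p = 0.462), and the other at 518 and 435 against 529 and 544 (-0.17, SE 0.18, adjusted p = 0.745). The groups overlapped on the first of these. The pseudogene Snrp1c-ps2 was at 2773 and 2378 against 2642 and 2057 (log2 change 0.14, SE 0.17), and its probe set belongs to a class (suffix _f_at) that can pick up several related transcripts. The brighter probe set of Snrpb2 and a probe set each of Snrpe, Sf3a2, Sf3b2, Srsf3, Srsf4, Prpf19 and Hnrnpdl carry the same suffix. Other suffixes occur as well. Both probe sets of Srsf2 and a further one of Hnrnpdl carry _s_at. Both of Snrpb and a probe set each of Sf3a2, Snrpb2, Srsf1 and Prpf39 carry _r_at. How specific any of these are to their gene was not tested.

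All 10 PRPF probe sets (8 genes) had a change below 0, with a median of -0.29, and 0 were called. Without hCD4 replicate 2 the median was -0.16. Prpf8, the large protein at the catalytic centre of the spliceosome, was at 1722 and 1520 on the Hemangioblast arrays, against 2195 and 2478 on the hCD4 arrays (log2 change -0.52, SE 0.15, adjusted p = 0.104). Prpf31, which joins U4/U6 to U5, was at 586 and 522 against 775 and 856 (log2 change -0.55, SE 0.16, adjusted p = 0.125). In both genes the groups were clearly apart and the replicates close, yet the adjusted p missed the threshold. Prpf6, which bridges the tri-snRNP, was at 1403 and 1275 against 1510 and 1760 (log2 change -0.28, SE 0.15, adjusted p = 0.435), and Prpf38a at 850 and 867 against 927 and 1210 (-0.30, SE 0.17, adjusted p = 0.481). The kinase gene Prpf4b and Prpf38b had changes of -0.32 and -0.35, and Prpf19, a ubiquitin ligase of the spliceosome, of -0.15 and -0.089 on its 2 probe sets. Prpf39 was dim, at 79.7 and 65.5 against 82.1 and 74.1 on the brighter of its probe sets.

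Of 16 SR protein probe sets (9 genes), 15 had a change below 0 and 0 were called, with a median of -0.22. Srsf2, which binds exonic enhancers, came nearest to the threshold from outside it. One of its probe sets was at 1644 and 1676 on the Hemangioblast arrays, against 2408 and 2540 on the hCD4 arrays, with tight replicates and well separated groups (log2 change -0.57, SE 0.14, 95% interval -0.88 to -0.26, adjusted p = 0.0584). It passed when dim probe sets were left out, so that fewer were tested (adjusted p = 0.0275). The brighter probe set of Srsf2 was at 6666 and 5054 against 6643 and 6761 (log2 change -0.21, SE 0.17, adjusted p = 0.647), and here Hemangioblast replicate 1 lay between the hCD4 arrays.

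**Figure D4:**
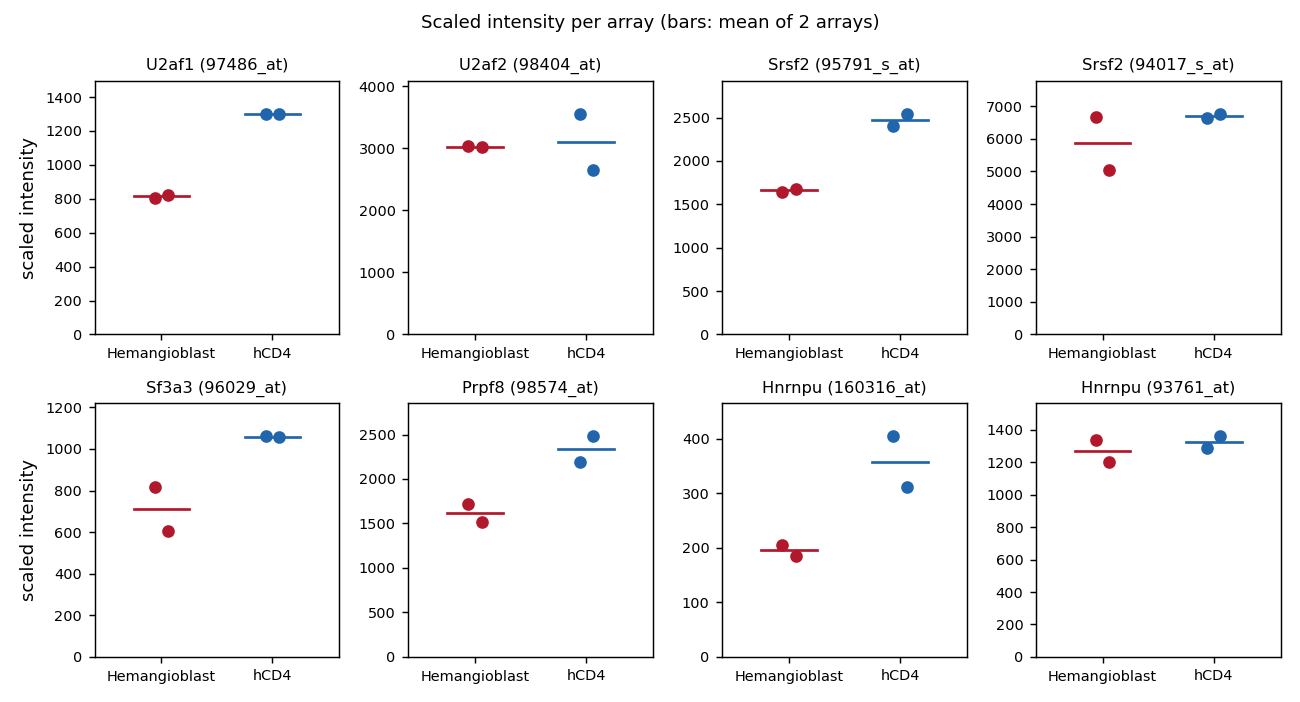
Scaled intensity on each array (y axis, from 0) for 8 probe sets, with Hemangioblast left of hCD4, points for arrays and bars for the mean of 2 arrays. U2af1, one probe set each of Srsf2 and Hnrnpu, Sf3a3 and Prpf8 have separate groups, whereas U2af2 and the brighter probe sets of Srsf2 and Hnrnpu do not.

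Srsf11 was at 1318 and 1261 on the Hemangioblast arrays, against 1591 and 1850 on the hCD4 arrays (log2 change -0.41, SE 0.15, adjusted p = 0.208), and Srsf6 at 1630 and 1627 against 1952 and 2002 (-0.28, SE 0.14, adjusted p = 0.382). In both the groups were apart by more than either pair of replicates. Srsf1, the founding SR protein, has 4 probe sets with changes of -0.54, -0.20, -0.16 and 0.11, and on all of them the groups overlapped. Its lowest was at 300 and 513 against 680 and 489 (SE 0.28, adjusted p = 0.407), and its change was -0.16 without Hemangioblast replicate 1 and -0.91 without Hemangioblast replicate 2. Srsf3, which encodes the smallest SR protein, was at 2605 and 2897 against 2803 and 3227 on its bright probe set (log2 change -0.13, SE 0.15, adjusted p = 0.769) and had a change of -0.31 on the dim one. Srsf10, a splicing repressor when dephosphorylated, had changes of -0.44 and -0.32, Srsf4 of -0.14 and -0.13, Srsf5 of -0.23 and Srsf9 of -0.20.

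The 22 hnRNP probe sets (16 genes) had changes from -0.81 to 0.80. Of these, 17 had a change below 0 and 5 above it, 0 were called, and the median was -0.16. The lowest and the highest change of all members were both in this family. Hnrnpu, a large nuclear scaffold protein, was at 206 and 185 on the Hemangioblast arrays, against 404 and 311 on the hCD4 arrays by one probe set (log2 change -0.81, SE 0.23, adjusted p = 0.101). It passed when dim probe sets were left out (adjusted p = 0.0398). The brighter probe set of the same gene was at 1335 and 1199 against 1288 and 1359 (log2 change -0.064, SE 0.15, adjusted p = 0.907), with overlapping groups, so the 2 probe sets of Hnrnpu gave different pictures.

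Hnrnph1, which binds G-rich elements, was at 1927 and 1623 on the Hemangioblast arrays, against 2458 and 2425 on the hCD4 arrays (log2 change -0.46, SE 0.15, adjusted p = 0.149). Hnrnpdl was at 874 and 773 against 1130 and 1154 (log2 change -0.47, SE 0.15, adjusted p = 0.154), and its other probe sets had changes of -0.24 and, on a dim one, 0.30. Hnrnpll, a regulator of CD45 splicing in lymphocytes, was at 478 and 455 against 623 and 604 (log2 change -0.38, SE 0.17, adjusted p = 0.3). In these 3 genes the groups did not overlap on the probe sets given with their arrays. Hnrnpd, known as AUF1 and a binder of AU-rich RNA, was at 2536 and 2037 against 2854 and 2612 (log2 change -0.26, SE 0.16, adjusted p = 0.494).

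Hnrnpa2b1, a core component of hnRNP particles, was at 2685 and 2703 against 3299 and 2617 on its bright probe set (log2 change -0.12, SE 0.16, adjusted p = 0.799), and at 0.20 on the log2 scale by the other. Hnrnpa1 had a change of -0.28, Hnrnpm of -0.37, Hnrnpk of -0.24, Hnrnpc of -0.19 and Hnrnpl of 0.16, with SEs of 0.17 to 0.26. Hnrnpab had changes of -0.32 and -0.035, Hnrnpr of -0.093, Hnrnph3 of -0.088 and Hnrnpul2 of 0.26 and -0.040, none of which passed. The 2 members with both Hemangioblast arrays above both hCD4 arrays were the first of these Hnrnpul2 probe sets and the dim one of Hnrnpdl. The highest value belonged to Hnrnph2, named here after its values were seen, at 306 and 286 on the Hemangioblast arrays, against 344 and 72.7 on the hCD4 arrays (log2 change 0.80, SE 0.55, adjusted p = 0.56). The hCD4 arrays differ widely, and the higher of them lies above both Hemangioblast arrays.

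Among the 16 member genes with more than 1 probe set, 10 had changes of one sign on all of them and 6 had both signs, and in 0 did the changes differ by over 1 log2 unit. The median standard error of a member's change was 0.19.

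Other genes of the splicing pathway were taken from a list written from general knowledge, with 161 probe sets for 122 genes. Of these, 4 probe sets (2.48%) were called lower on the Hemangioblast arrays and 2 (1.24%) higher, against 1.56% and 2.91% of all tested probe sets. The median change was -0.17, and 111 of 161 were below 0, against 45.6% of all. The list holds Ctr9, a transcription elongation factor of the Paf1 complex, by mistake, and neither of its 2 probe sets was called. Without them there were 159 probe sets of 121 genes with the same 4 and 2 calls, a median of -0.17 and 111 below 0. By role, the medians were -0.31 for Lsm proteins and snRNP assembly (16 probe sets, 1 lower and 0 higher), -0.26 for the exon junction complex and export (9, 0 and 0), -0.14 for helicases and other spliceosome proteins (53, 1 and 0), -0.14 for SR kinases and SR-related proteins without Ctr9 (24, 1 and 0; -0.13 over 26 with it) and -0.10 for other regulators of splice choice (57, 1 and 2).

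The 2 higher ones were regulators of tissue-specific exons. Mbnl1, a muscleblind protein known for switching fetal to adult exons, was at 800 and 885 on the Hemangioblast arrays, against 161 and 185 on the hCD4 arrays. It rose 4.55-fold (log2 change 2.19, SE 0.19, adjusted p = 0.000585) and passed under all 12 alternatives (adjusted p at most 0.0145, without an intensity trend, and at most 0.00644 with 1 array left out). Celf2, which often acts against muscleblind proteins, was at 395 and 443 against 188 and 131 (log2 change 1.33, SE 0.24, adjusted p = 0.0203), and its other probe set had a change of 1.05 that missed the threshold. Without Hemangioblast replicate 1, Hemangioblast replicate 2 or hCD4 replicate 2 the adjusted p of Celf2 was 0.0547, 0.104 and 0.122.

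The 4 lower ones were Rnps1, Wdr77, Eftud2 and Pcbp4. Rnps1, counted above with the SR-related proteins, is also a protein of the exon junction complex. Wdr77 is a partner of the methyltransferase that modifies Sm proteins, Eftud2 is the GTPase of the U5 snRNP, and Pcbp4 encodes an RNA-binding protein. Rnps1 was at 1125 and 1306 on the Hemangioblast arrays, against 1973 and 2313 on the hCD4 arrays (log2 change -0.81, SE 0.16, adjusted p = 0.0263). Wdr77 was at 766 and 900 against 1408 and 1376 (log2 change -0.73, SE 0.15, adjusted p = 0.0367), and Eftud2 at 1098 and 1050 against 1654 and 1862 (-0.70, SE 0.15, adjusted p = 0.0358). In these genes, as in U2af1, the groups were far apart beside their replicates. Pcbp4 was at 132 and 191 against 365 and 356 (log2 change -1.10, SE 0.25, adjusted p = 0.0448). Each of the 4 lost its call without hCD4 replicate 1 and without hCD4 replicate 2, where 2 arrays face 1 and the adjusted p lay between 0.103 and 0.294. They also lost it without 1 of the Hemangioblast arrays, which was replicate 2 for Eftud2 (0.0791) and replicate 1 for Rnps1 (0.0537), Wdr77 (0.0786) and Pcbp4 (0.13). Celf2 and these 4 also lost their calls without scaling (adjusted p of 0.0736 to 0.147) and without an intensity trend (0.0838 to 0.213). Eftud2 further lost it with median scaling (0.0693), Wdr77 with quantile normalization (0.064) and Pcbp4 with an added constant of 64 (0.0511).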

How the data were processed

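Total RNA (20 ug, TRIzol) was labelled with biotin for 1 array per sample, per the labels. The deposited values are 1 intensity for each probe set on each array, on a linear scale; how the authors derived them (software, background, scaling) is not stated by the labels or files at hand. Array medians were 193 and 197 for Hemangioblast and 197 and 165 for hCD4, and all 4 value columns were used. Having only 4 arrays limits the precision.

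After leaving out 66 control probe sets, arrays were scaled to one mean (2% trimmed at each end; factors 0.939, 1.05, 0.936 and 1.09), and 16 was added before taking log2. Changes and folds are on that scale. Testing used limma 3.58.1 (R 4.3.3, lmFit, eBayes with an intensity trend, no block, 2 residual and 6.18 prior degrees of freedom), two-sided, with Benjamini-Hochberg adjustment over all 12422 probe sets. With 2 arrays against 2, an exact permutation test cannot go below p = 0.333, and it was not used. The fit was tested on simulated data, in which it recovered few of the 1.5-fold and 2-fold changes. Fewer probe sets were changed there than were called in the real data, and they were drawn from all those above the median intensity. That recovery therefore gives no rate for the members, which are brighter. A member that was not called may still differ.

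Symbols are those of the platform annotation, and all 71 members had the same symbol in the RefSeq table. The members and lists were chosen with earlier results of these data known. Values per array are given for each member past the threshold, for the 4 probe sets with the smallest adjusted p and the 2 brightest in each family, for all U2AF genes, for member genes whose probe sets differ by over 1 log2 unit (0 were found), and, among other splicing genes, for those past the threshold and the 4 with the smallest adjusted p. Further members complete the families. Alternatives were an added constant of 1 or 64, median, quantile or no scaling, leaving out probe sets with a mean under 100, no trend, a replicate block and leaving out each array. Plots were made in Python 3.11.15 with matplotlib 3.10.9.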

Additional observations from a re-analysis of the deposited data

How the results depend on the processing

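With 1 array left out, a fit has 1 array in one group and takes its residual spread from the other, so a call lost there need not mean a smaller change. The lean of the members below 0 kept its direction in every setting run (member medians of -0.29 to -0.16), and single calls did not. With dim probe sets left out, 3 of the 66 members tested were called lower, beside 356 of all 8366 probe sets tested. Member probe sets called, 1 as reported, were 0 with median scaling, quantile normalization, no scaling or no intensity trend, 3 with dim probe sets left out (U2af1, Srsf2 and Hnrnpu) and 0 to 2 with 1 array left out (Sf3a3 and Snrpa1 without Hemangioblast replicate 1, Hnrnph2, higher, without hCD4 replicate 1). Counted as genes they were 0 with median scaling, quantile normalization, no scaling or no intensity trend and 0 to 2 with 1 array left out. Members at least 2-fold apart in all pairs were 0, or 0 to 1 with 1 array left out. Over all probe sets, 556 calls (362 higher, 194 lower) became 272 without scaling (222 and 50), 853 with dim probe sets left out (497 and 356), 220 without a trend (188 and 32), and 219 to 517 with 1 array left out. The 6 calls among other splicing probe sets became 1 without scaling, 11 with dim probe sets left out, 1 without a trend, and 1 to 4 with 1 array left out.

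Median scaling gave a median change of -0.29 for the members, -0.30 for SR, -0.31 for SF3A and SF3B, -0.24 for hnRNP and -0.38 for PRPF proteins, and -0.033 for all probe sets, which quantile normalization put at -0.028. An added constant of 1 gave -0.25 for SR proteins. With 1 array left out the medians were -0.24 to -0.16 for the members, -0.29 to -0.19 for SR, -0.30 to -0.13 for SF3A and SF3B, -0.25 to -0.025 for snRNP, -0.27 to -0.11 for hnRNP, -0.34 to -0.16 for PRPF and -0.23 to -0.025 for U2AF, and -0.0030 to 0.088 for all. Among named members, sign changed for Sf3a2 (-0.012, median scaling) and U2af2 (0.0040 without scaling, 0.081 with quantile normalization). With 1 array left out it changed for U2af2 (-0.23 to 0.19), U2af1l4 (-0.18 to 0.046), Hnrnpa2b1 (-0.29 to 0.042) and Snrpb (-0.20 to 0.028). None of these passed the threshold.

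The titles share replicate numbers, and nothing in the labels pairs the arrays. Deviations of same-numbered arrays from their group means correlated at r = -0.0078 across probe sets (0.13 over the 8366 with a mean of at least 100). Scale factors were alike by number, 0.939 and 0.936 for replicate 1 against 1.05 and 1.09 for replicate 2. The actin 3' to 5' ratio was 1.63 and 1.36 for replicate 1 against 1.16 and 1.12 for replicate 2. The Gapdh ratio was 1.33 and 1.13 for replicate 1 against 1.03 and 1.03 for replicate 2. Whether same-numbered arrays were processed together is not known. With the replicate block 710 probe sets were called, 1 of them a member (U2af1, adjusted p = 0.0355). The cause of these shifts was not tested. No detection calls were used, so what a dim probe set such as those of Prpf39 can show is limited.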
